A study of Mus musculus with 2 samples.

Results

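Macrophages of bone were isolated for single-cell sequencing through surface proteins, and 9 genes bear on what such an isolation contains. Adgre1 encodes F4/80 and Itgam encodes CD11b, the 2 proteins stained for the sort. Csf1r, Csf3r, Csf2ra, Csf2rb and Csf2rb2 encode receptor chains for the colony-stimulating factors and for interleukin-3, and Ly6g and Ly6c2 encode the surface antigens Ly6G and Ly6C2. The genes were taken by symbol, not by any measured value, and all 9 were among the 27998 gene rows of each count matrix.

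The study held 1 control and 1 OTM (orthodontic tooth movement) library of sorted cells. Both came from alveolar bone around the left upper first molar of 8-week-old male C57/B6 J mice, and the labels called both populations alveolar macrophages. In the OTM group a coil spring pulled the left first molar towards the incisors for 7 days, and the methods describe that force for the OTM group alone. The bone was digested with collagenase I, and cells went through gradient centrifugation and were stained for F4/80 and CD11b before sorting by flow cytometry. The methods name F4/80-stained cells as those collected, whereas the study's results call the sequenced cells positive for both proteins. The number of mice behind each library was not given in the labels, and no genotype other than the strain was named. With 1 library per condition no test between conditions was possible. Every interval below is a 95% interval that covers counting error only, and every ratio of OTM to control compares 2 libraries.

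Mononuclear phagocytes and granulocytes arise from shared progenitors in bone marrow and part under the influence of growth factors. CSF1 acts through CSF1R on monocytes, macrophages and osteoclast precursors, G-CSF acts through CSF3R on neutrophils, and GM-CSF acts through an alpha chain and a shared beta chain on both lineages. F4/80 is an adhesion G protein-coupled receptor of mouse macrophages, whereas CD11b pairs with CD18 to form the integrin Mac-1, which monocytes, macrophages and neutrophils all carry. Ly6G marks mouse neutrophils, and Ly6C marks inflammatory monocytes most strongly.

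Ly6g and Ly6c2 are members of one gene family on chromosome 15. Below, Ly6g was higher in neutrophil-like and Ly6c2 in monocyte- or macrophage-like cells, although many neutrophil-like cells held both. The sequences upstream of their starts are therefore shown. Ly6g (ENSMUSG00000022582) spans bases 75155240 to 75159126 on the + strand and Ly6c2 (ENSMUSG00000022584) spans 75108158 to 75111970 on the − strand (GRCm38, the build that mm10 names, with GENCODE vM21 gene bounds). The sequences are from RefSeq on GRCm38.p6 and run 5′ to 3′ on each gene's strand. That of Ly6g is chr15:75155011-75155239 (+ strand, 229 bases) and that of Ly6c2 chr15:75111972-75112221 (− strand, 250 bases). Capitals mark the letters GAGGAAGT, a form of the box that the myeloid factor PU.1 binds, and TTGCNNAA, a form of the C/EBP site, each searched on both strands.
Ly6g: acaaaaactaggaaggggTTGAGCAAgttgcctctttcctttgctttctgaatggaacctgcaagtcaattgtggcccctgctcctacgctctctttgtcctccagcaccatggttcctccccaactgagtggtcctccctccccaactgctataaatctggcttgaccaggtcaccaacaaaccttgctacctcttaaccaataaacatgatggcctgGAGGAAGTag
Ly6c2: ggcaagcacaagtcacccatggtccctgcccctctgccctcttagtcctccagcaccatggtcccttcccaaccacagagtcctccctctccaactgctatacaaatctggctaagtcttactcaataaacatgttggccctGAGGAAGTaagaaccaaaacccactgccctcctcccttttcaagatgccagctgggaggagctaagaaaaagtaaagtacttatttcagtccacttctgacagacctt
The best local alignment of the pair covered 106 columns, of which 86 were identical (81.1%), whereas no other pair among the 6 members with an upstream sequence aligned over more than 31 columns. GAGGAAGT began 10 bases before the annotated start of Ly6g and at base 143 of the 250 shown for Ly6c2. TTGCNNAA lay on the reverse strand upstream of Ly6g and was not among the letters shown for Ly6c2. Neither motif was found in the bases searched upstream of Itgam (250 bases), Csf3r (141), Csf2ra (239) or Csf2rb2 (250). Of 32817 windows of 250 bases before a start, 2.44% held GAGGAAGT and 9.57% held TTGCNNAA, and a match is a description of letters, not of binding.

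The control library held 2863 barcodes and the OTM library 2058, with medians of 4001 and 6856.5 UMIs (unique molecular identifiers, each standing for 1 captured transcript) per barcode. After the filter on genes and mitochondrial UMIs, 2835 control and 2052 OTM cells remained and gave 11 and 7 clusters. The 9 genes were left out of the clustering and of the marker lists that named the clusters. Scrublet, a doublet caller, marked 137 OTM barcodes (6.68%) and 0 control barcodes, so doublets in the control library are not accounted for. Why it marked none there was not tested. The libraries shared 6 barcode sequences.

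Neutrophil-like cells made up 42.2% (40.3 to 44) of the control cells and 39.2% (37.1 to 41.3) of the OTM cells. Monocyte- or macrophage-like cells made up 53.2% (51.3 to 55) and 48.6% (46.5 to 50.8), and granulocyte progenitor-like cells 2.79% and 12.2%. The OTM progenitor-like cluster was led by Elane and Mpo but also by Fcnb, Cebpe and Rrm2, genes of later granulocytes and of division. It held the OTM peak of the immature neutrophil markers, which summed to 125599 CPM there. Its progenitor markers summed to 7591.5 CPM, against 27517.3 CPM in the control progenitor-like cluster. Its size moved with the settings, since the 250 OTM progenitor-like cells became 46 to 86 under 5 of the 7 alternatives that regrouped cells, against 36 to 85 in the control under all 7. Against the name of macrophages in the labels, neutrophil- and progenitor-like cells together made up 44.9% (43.1 to 46.8) of the control and 51.4% (49.2 to 53.5) of the OTM cells. The neutrophil-like share moved with the settings, from 37.8% to 44.9% in the control and from 34.8% to 51.4% in the OTM library. Only 62 control cells formed a resident macrophage-like cluster, led by the complement genes C1qa, C1qb and C1qc, and no OTM cluster took that name. The OTM MHC class II-high cluster scored nearly as high on the resident macrophage markers as on its own (2.06 against 2.27, in mean standardised marker level) and held the OTM peak of that list, 570.4 CPM. On the same score, the OTM immature neutrophil-like cluster had 0.95 for its own markers and 0.87 for the mature ones. The larger control immature cluster had 1.35 and 0.98. Mmp9, a mature marker, was among the leading genes of both. The dividing classical monocyte-like clusters, the interferon-led control cluster and the OTM cluster led by Saa3 had none of their own markers among their 10 leading genes and were named by marker level alone. All shares are shares of sorted barcodes, which the gate helped to set.

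Levels below are in CPM, the UMIs of a gene per 1000000 UMIs of the cell group. The 8 B cell markers summed to 42.2 CPM in the control and 10.1 CPM in the OTM library, and the 6 stromal or osteoblast markers to 17.8 and 0.85 CPM, with Cxcl12 and Dcn at 0 in OTM. Of 7 osteoclast markers, Calcr and Oscar were at 0 in both libraries, and the list was highest in the control resident macrophage-like cluster at 1928 CPM. A cluster of 54 B cell-like control cells, with 20.7% of its UMIs from hemoglobin genes, served below as cells expected to hold few myeloid transcripts. It was also the control peak of the plasmacytoid dendritic cell list (158 CPM), the conventional dendritic cell list (56.6 CPM) and the T or NK cell list (863 CPM), so it is not a pure reference, and dendritic cells are known to express Csf2ra, Csf2rb and Ly6c2. The OTM library held no such cluster.

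**Figure D1:**
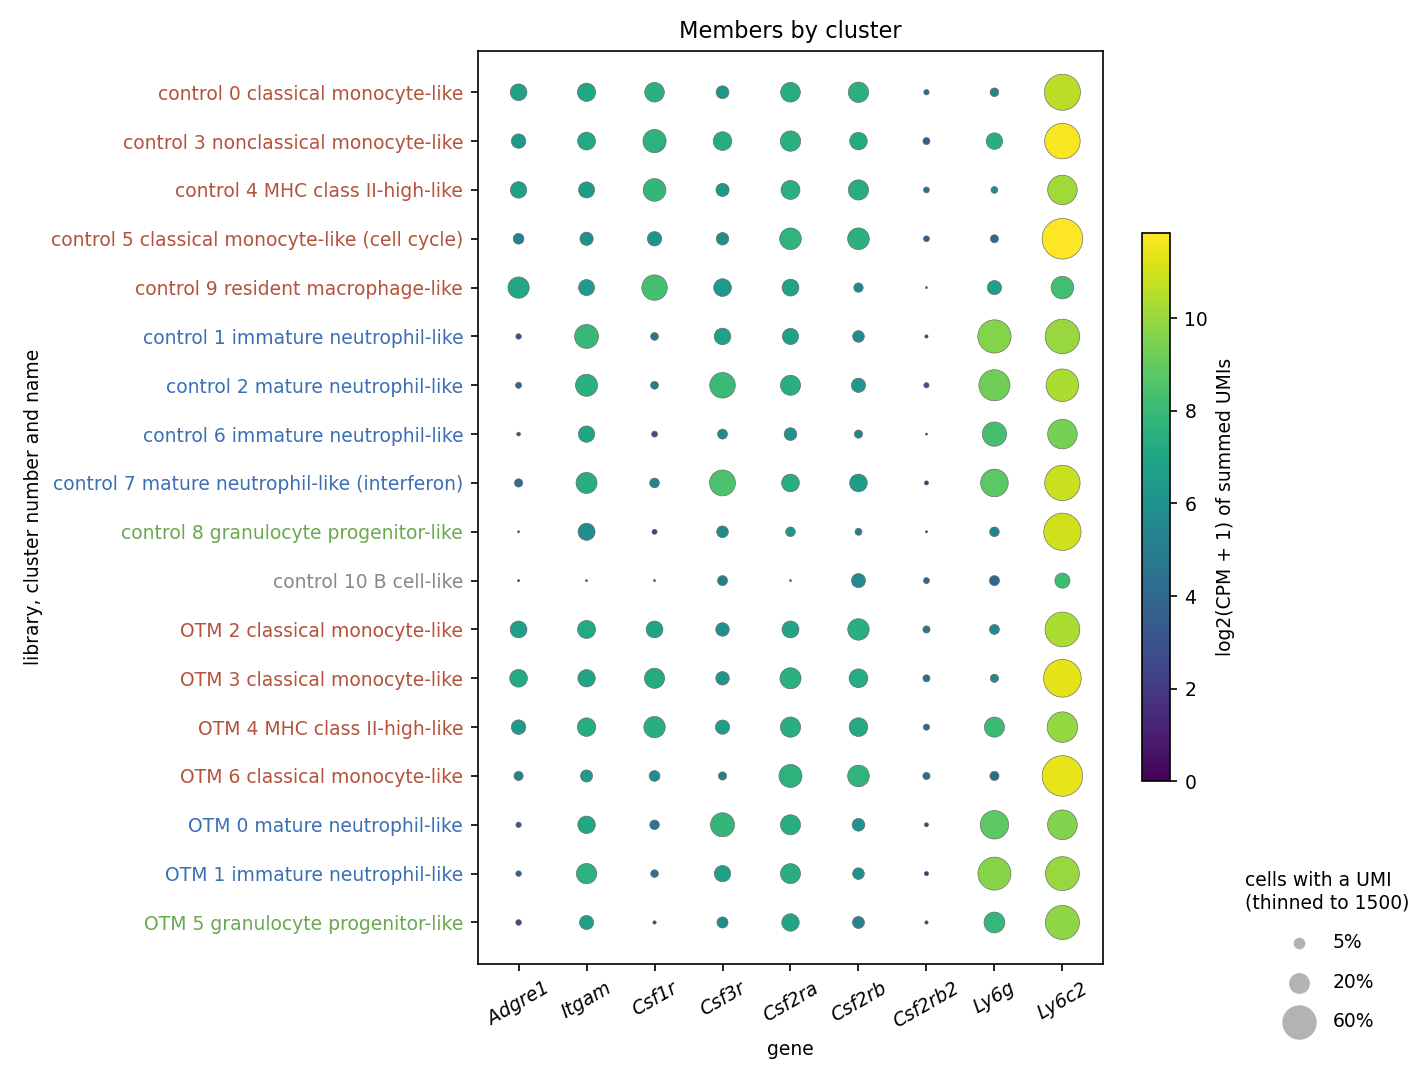
The 9 genes (columns) in the 11 control and 7 OTM clusters (rows, coloured by class). Colour is the log2 level of the summed UMIs and dot area the percent of cells with at least 1 UMI after every cell was thinned to 1500 UMIs. Adgre1 and Csf1r dots are large in monocyte- or macrophage-like rows, Ly6g dots in neutrophil-like rows, and Itgam and Csf2ra dots in both.

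Of the sort genes, Adgre1 differed widely between the classes and Itgam less so. Adgre1 (ENSMUSG00000004730, chromosome 17, 57358691 to 57483527, + strand) stood at 87.6 CPM (81.2 to 94.3) in control monocyte- or macrophage-like cells and at 9.14 CPM (6.74 to 12.1) in control neutrophil-like cells, from 695 and 48 UMIs. The OTM library gave 94.9 CPM (88.6 to 102) and 9.58 CPM (6.91 to 13). The neutrophil-like level was 0.104 (0.0762 to 0.14) of the other in the control and 0.101 (0.0722 to 0.138) in the OTM library. Even among monocyte- or macrophage-like cells, 65.6% of control and 49.3% of OTM barcodes held no Adgre1 UMI.

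Detection depends on depth, so each cell was thinned to 1500 UMIs before shares were compared, and no cell was shallower than that. Adgre1 was then found in 14.1% (12.4 to 15.9) of control and 14.2% (12.1 to 16.6) of OTM monocyte- or macrophage-like cells. In neutrophil-like cells it was found in 1.76% (1.09 to 2.67) and 1.49% (0.774 to 2.59). Without thinning, the shares were 34.4% and 50.7% against 3.6% and 3.98%, so that the gap between the libraries was not seen at equal depth. None of the 54 B cell-like cells held an Adgre1 UMI, which allows a share of up to 5.56%, at a median of 5531 UMIs per cell against 3042 in control neutrophil-like cells.

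Adgre1 also varied among the monocyte and macrophage clusters. In the control it was highest in the resident macrophage-like cluster at 134 CPM (100.4 to 174), then in the MHC class II-high cluster at 106 CPM (89.9 to 124) and the larger classical monocyte-like cluster at 104 CPM (92.7 to 117), all with overlapping intervals. The dividing classical monocyte-like cells had the lowest levels of the class, 33.7 CPM (25.2 to 44.2) in the control and 37.7 CPM (28.4 to 49) in the OTM library. In the OTM library a classical monocyte-like cluster led by Tnip3 was highest at 139.9 CPM (125 to 156), above the cluster led by Saa3 at 102 CPM (90.2 to 115). Hemoglobin made up 2.46% of the UMIs of the former.

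Itgam (ENSMUSG00000030786, chromosome 7, 128062640 to 128118491, + strand) was present in both classes and higher in neutrophil-like cells. It stood at 189.7 CPM (178 to 202) in control neutrophil-like cells against 111 CPM (104 to 119) in monocyte- or macrophage-like cells, a ratio of 1.71 (1.56 to 1.87). In the OTM library the values were 163 CPM (151 to 175) and 132 CPM (124 to 139.5), a ratio of 1.23 (1.12 to 1.36). With progenitor-like cells counted as neutrophil-like the OTM log2 ratio was 0.02. At 1500 UMIs, Itgam was found in 27.9% (25.3 to 30.5) and 20.3% (17.5 to 23.2) of neutrophil-like cells and in 16.7% (14.8 to 18.6) and 17.1% (14.8 to 19.6) of monocyte- or macrophage-like cells of the control and OTM library. One of the 54 B cell-like cells held an Itgam UMI before thinning.

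Itgam peaked in the larger immature neutrophil-like clusters, at 239 CPM (219 to 260.1) in the control and 192 CPM (174 to 210.2) in the OTM library. Among myeloid clusters it was lowest in control progenitor-like cells at 53.8 CPM (40.2 to 70.5) and in the dividing classical monocyte-like cells at 63.5 CPM (51.5 to 77.4) and 86.3 CPM (71.9 to 103). Of neighbours in the order of levels, 3 of 10 pairs had separate intervals in the control and 0 of 6 in the OTM library. A second row of the matrices carried the symbol Itgam, ENSMUSG00000108596, which GENCODE names Gm49368 and which overlaps Itgam at 128062683 to 128128160. It held 102 control and 106 OTM UMIs. Of the 98-base words in the last 500 bases of Itgam transcripts, 16.9% also occur in Gm49368 transcripts, so reads that both could claim leave the Itgam count uncertain.

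**Figure D2:**
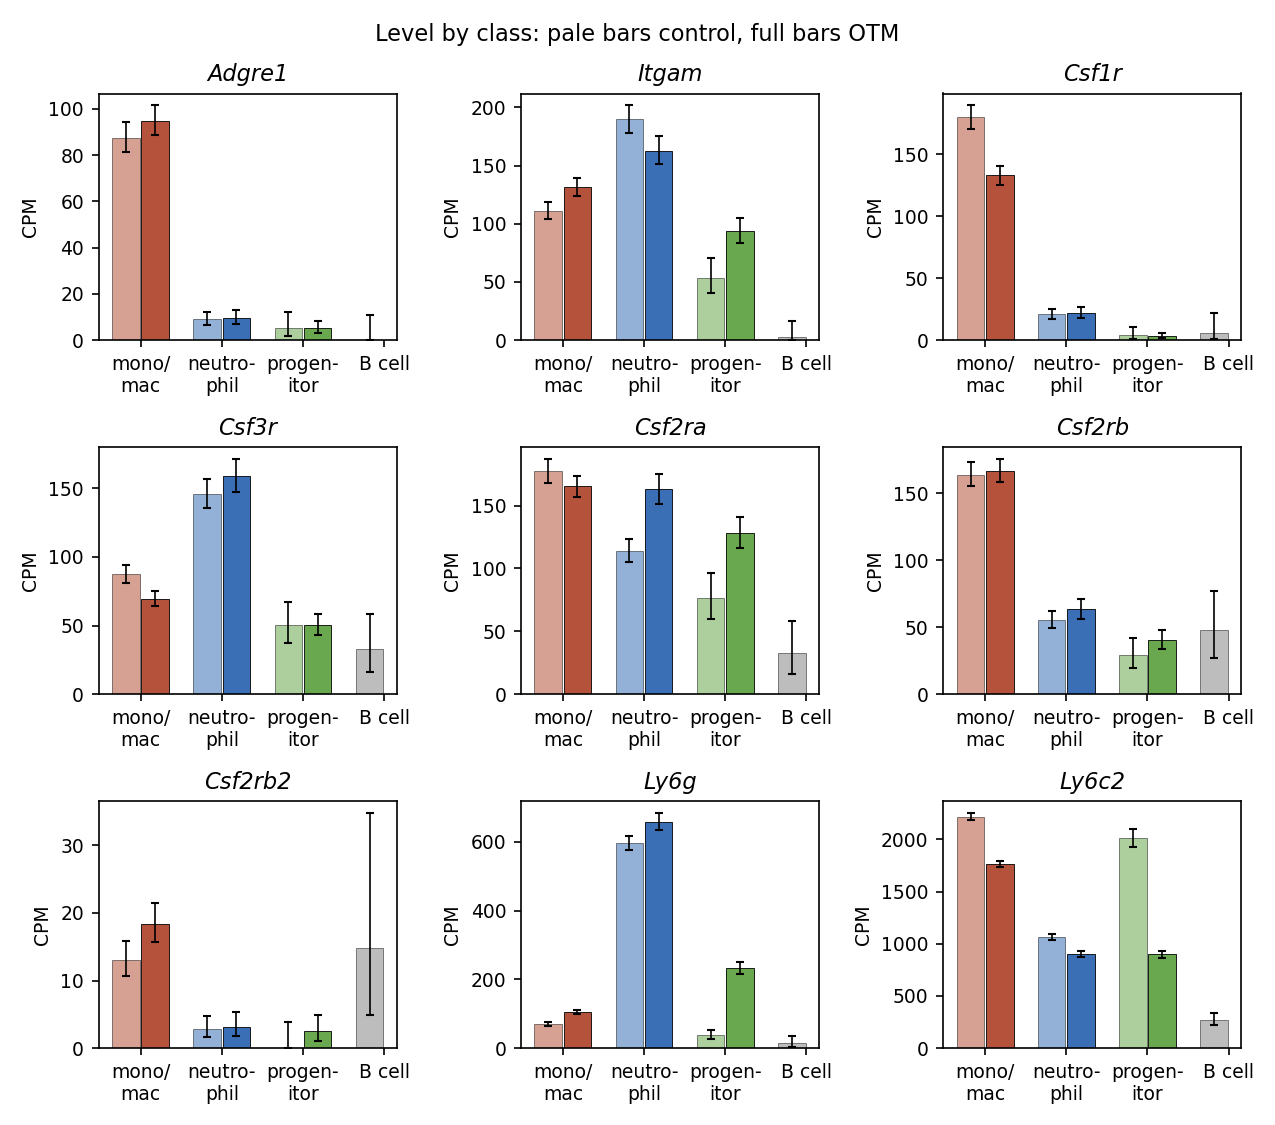
Level of each gene in CPM by class, with control as pale and OTM as full bars. Error bars are 95% Poisson intervals of the summed UMIs, and the OTM library has no B cell-like bar. Adgre1 and Csf1r bars are tallest in the monocyte or macrophage class, Ly6g bars in the neutrophil class, and Itgam bars stand in both, taller in the neutrophil class.

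Barcodes that held the transcript of a sort protein had different makeups for the 2 genes. At 1500 UMIs, 233 control barcodes held Adgre1, of which 91% (86.6 to 94.3) were monocyte- or macrophage-like and 9.01% (5.67 to 13.4) neutrophil-like. Of 158 such OTM barcodes, 89.9% (84.1 to 94.1) and 7.59% (3.99 to 12.9) were. Of 597 control barcodes with Itgam, 55.8% (51.7 to 59.8) were neutrophil-like and 42% (38 to 46.1) monocyte- or macrophage-like. The 362 OTM barcodes with Itgam gave 45% (39.8 to 50.3) and 47.2% (42 to 52.5). Neutrophil-like cells were thus a larger share of control Itgam barcodes than of all control barcodes, while the OTM intervals for these shares overlapped.

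Few barcodes held both transcripts, even without thinning. Adgre1 and Itgam were found together in 241 of 2835 control cells (8.5%) and in 346 of 2052 OTM cells (16.9%), and neither was found in 44.4% and 32.7%. Among neutrophil-like cells, 50% of control and 47.3% of OTM barcodes held Itgam without Adgre1, and 1.67% and 2.36% held both. After thinning, 54 control and 24 OTM barcodes held both, of which 45 and 22 were monocyte- or macrophage-like. A transcript not detected at this depth is not shown to be absent, and surface protein was not among the values analysed here.

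**Figure D3:**
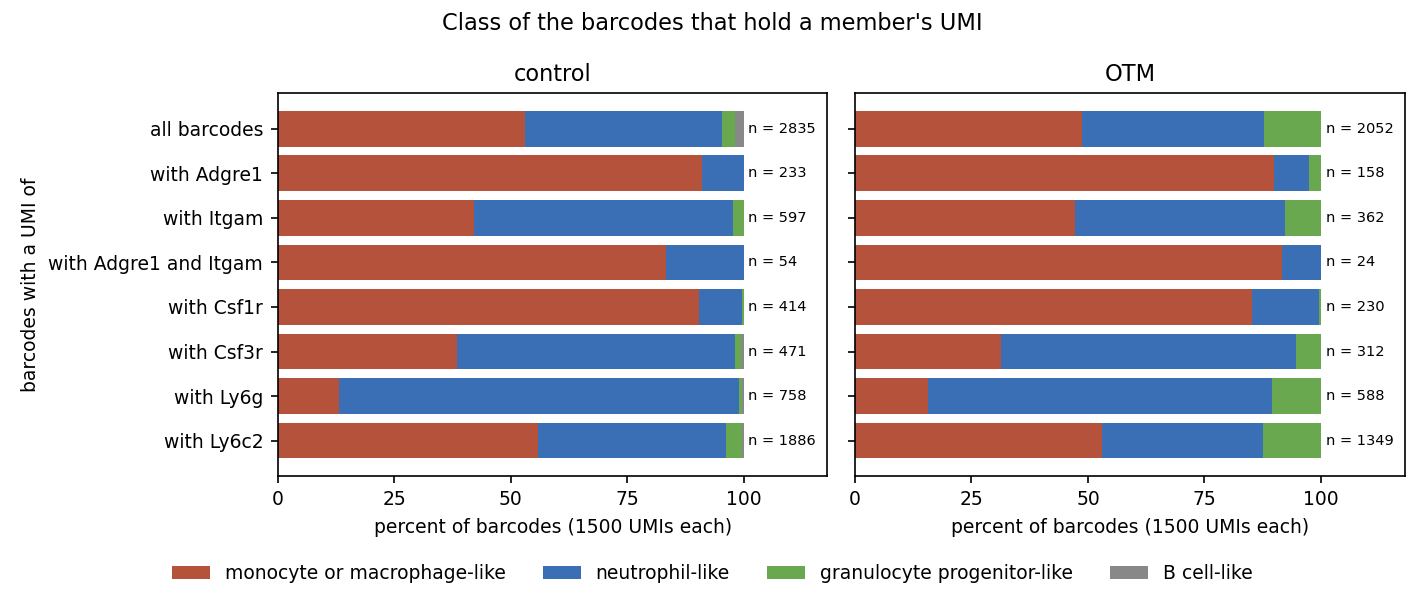
Class of all barcodes and of those that held at least 1 UMI of a named gene, after thinning to 1500 UMIs (n printed at each bar). Bars give the percent of barcodes in each class. The bars for Adgre1 and Csf1r are mostly monocyte- or macrophage-like, the bar for Ly6g mostly neutrophil-like, and the bar for Itgam is split.

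The receptor for CSF1 had a pattern like that of Adgre1. Csf1r (ENSMUSG00000024621, chromosome 18, 61100598 to 61132149, + strand) stood at 179.8 CPM (171 to 189) in control and 133 CPM (125 to 141) in OTM monocyte- or macrophage-like cells. In neutrophil-like cells it stood at 20.9 CPM (17.2 to 25.2) and 21.7 CPM (17.5 to 26.5), which was 0.116 (0.095 to 0.141) and 0.163 (0.131 to 0.201) of the other class. The resident macrophage-like cluster was highest at 317 CPM (264 to 377), beyond the interval of the MHC class II-high cluster that came next at 224 CPM (201 to 249.9). The OTM MHC class II-high cluster had 175 CPM (159 to 192). Dividing classical monocyte-like cells had 74.5 CPM (61.5 to 89.4) and 55.5 CPM (44.1 to 68.9), and progenitor-like cells 4.14 and 3.11 CPM.

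The receptor for G-CSF was less restricted. Csf3r (ENSMUSG00000028859, chromosome 4, 126024550 to 126044440, + strand) stood at 146 CPM (136 to 157) in control and 159 CPM (147 to 171) in OTM neutrophil-like cells, against 87.4 CPM (81.1 to 94.2) and 69.3 CPM (64 to 75) in monocyte- or macrophage-like cells. The ratios were 1.67 (1.5 to 1.85) and 2.29 (2.05 to 2.56). Along the neutrophil clusters of the control, Csf3r was 46.1 CPM (35.5 to 58.8) in the immature cluster with division genes, 107 CPM (93.6 to 121) in the larger immature cluster and 257 CPM (228 to 288) in the larger mature cluster. It was highest, at 359.8 CPM (308 to 417), in 135 control cells of a mature neutrophil-like cluster led by interferon-induced genes such as Ifit3 and Rsad2. The OTM mature cluster had 229 CPM (209 to 250.3) and the immature cluster 96.6 CPM (84.4 to 110.1).

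Among monocytes, a nonclassical monocyte-like control cluster, named by Ace, Eno3 and Fabp4, had the highest Csf3r at 153 CPM (135 to 172), above the immature neutrophil-like clusters of the same library. At 1500 UMIs, Csf3r was found in 19.8% (15.7 to 24.4) of those cells, 9.22% (7.09 to 11.7) of the larger classical monocyte-like cluster and 5.56% (1.16 to 15.4) of B cell-like cells. The classical monocyte-like share lay within the wide B cell-like interval, whereas the summed levels, 70.5 CPM (60.9 to 81.1) and 32.7 CPM (16.3 to 58.6), had separate intervals. Csf1r and Csf3r were in the same barcode in 302 control (10.7%) and 307 OTM cells (15%) without thinning. At 1500 UMIs 49 and 28 barcodes held both, of which 41 and 21 were monocyte- or macrophage-like.

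The 2 chains of the GM-CSF receptor differed from each other. Csf2ra, the alpha chain (ENSMUSG00000059326, chromosome 19, 61223957 to 61228429, − strand), was broad, at 177 CPM (168 to 187) in control monocyte- or macrophage-like and 114 CPM (105 to 123) in neutrophil-like cells, and at 165 CPM (157 to 174) and 163 CPM (151 to 175) in the OTM library. The neutrophil-like level was 0.642 (0.582 to 0.706) of the other in the control and 0.986 (0.90 to 1.08) in the OTM library. No neighbours in the order of Csf2ra levels had separate intervals in either library.

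Csf2rb, the shared beta chain (ENSMUSG00000071713, chromosome 15, 78325752 to 78353847, + strand), was lower in neutrophil-like cells, at 55.6 CPM (49.4 to 62.3) and 63.2 CPM (56 to 71.1) against 164 CPM (155 to 173) and 167 CPM (158 to 175). The ratios were 0.339 (0.298 to 0.386) and 0.379 (0.333 to 0.432). It was highest in the dividing classical monocyte-like clusters at 186 CPM (165 to 209) and 209 CPM (186 to 234) and stood at 44.5 CPM (26.4 to 70.4) in the resident macrophage-like cluster, where Csf1r was highest. The intervals of the dividing clusters overlapped those of the next cluster in each library. B cell-like cells had 47.6 CPM (27.2 to 77.4). Both GM-CSF receptor chains were found in 27% of control and 48.1% of OTM monocyte- or macrophage-like cells and in 8.45% and 14.3% of neutrophil-like cells without thinning, and in 4.98%, 4.81%, 2.09% and 1.74% at 1500 UMIs.

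Csf2rb2, the beta chain specific for interleukin-3 (ENSMUSG00000071714, chromosome 15, 78282507 to 78305721, − strand), was the rarest member with 124 control and 185 OTM UMIs. It stood at 13.1 CPM (10.7 to 15.9) and 18.4 CPM (15.7 to 21.4) in monocyte- or macrophage-like cells and at 2.85 CPM (1.6 to 4.71) and 3.19 CPM (1.75 to 5.36) in neutrophil-like cells. The 5 UMIs in B cell-like cells gave 14.9 CPM (4.83 to 34.7), an interval that held the control monocyte or macrophage level. Control progenitor-like cells held 0 UMIs, which allows up to 3.1 CPM. Csf2rb2 is a near copy of Csf2rb, and 4% of the 98-base words of Csf2rb 3′ ends also occur in its transcripts.

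Ly6g had the widest contrast towards neutrophils. It stood at 595 CPM (575 to 617) in control and 658 CPM (635 to 683) in OTM neutrophil-like cells, and at 70.1 CPM (64.3 to 76.1) and 105 CPM (98.4 to 112) in monocyte- or macrophage-like cells. The ratios were 8.5 (7.76 to 9.32) and 6.27 (5.82 to 6.75). At 1500 UMIs it was found in 54.6% (51.7 to 57.4) and 54% (50.5 to 57.5) of neutrophil-like cells and in 6.57% (5.37 to 7.94) and 9.22% (7.5 to 11.2) of monocyte- or macrophage-like cells. B cell-like cells had a share of 5.56% (1.16 to 15.4), so the control monocyte or macrophage share is not read as expression.

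Within the neutrophil lineage, Ly6g peaked in the larger immature neutrophil-like clusters, at 800.4 CPM (764 to 838) in the control and 832 CPM (795 to 869.5) in the OTM library. Mature clusters followed at 591 CPM (547 to 637) and 464 CPM (435 to 494), and the control cluster with division genes had 317 CPM (288 to 348). Control progenitor-like cells had 39.3 CPM (27.8 to 54), near the 40.9 CPM (33.7 to 49.2) of classical monocyte-like cells. The OTM progenitor-like cluster had 233 CPM (217 to 251), 5.93 (4.28 to 8.45) times the control level, and was the one led in part by genes of later granulocytes. It also held the OTM peak of the immature neutrophil markers, so this ratio does not compare like cells. The peak of Ly6g in immature clusters differed from that of Csf3r, which was highest in mature ones. The OTM immature cluster scored nearly as high on the mature markers, as given above, so its stage is less certain.

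In monocyte- or macrophage-like and in B cell-like cells as a whole, Ly6g stood in about the same proportion as in neutrophil-like cells to S100a8, an abundant neutrophil transcript found in every cluster. Neutrophil-like cells held 3.05 Ly6g UMIs per 1000 S100a8 UMIs in the control and 3.83 in the OTM library, monocyte- or macrophage-like cells 3.2 and 3.25, and control B cell-like cells 3.04. The B cell-like value came from only 4 cells with a Ly6g UMI and is imprecise. Over the 5 control monocyte and macrophage clusters, the Ly6g level was 0.765 to 1.16 times the one that the neutrophil-like ratio to S100a8 gives, and over the 4 OTM clusters 0.327 to 0.991 times, with the lowest value in the dividing cluster from 23 Ly6g UMIs. Csf3r in monocyte- or macrophage-like cells was 5.34 (control) and 2.32 (OTM) times that level, and Itgam 5.22 and 4.31 times. In B cell-like cells Itgam was 0.626 times and Csf3r 8.95 times it, the latter from 11 UMIs.

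For the converse, 6 monocyte genes (Ccr2, Fn1, F13a1, Ms4a6c, Ms4a4c and Vcan) were summed. Adgre1 in neutrophil-like cells was 1.15 (control) and 0.931 (OTM) times the level that the monocyte or macrophage ratio to that sum gives, and Csf1r 1.28 and 1.5 times. The low Adgre1 of neutrophil-like cells thus stood in about the same ratio to monocyte transcripts as in monocyte- or macrophage-like cells. Itgam, by contrast, was 18.8 and 11.4 times that level and Csf3r 18.4 and 21.1 times. Free RNA and doublets as the source of these UMIs were not tested, and these comparisons with other transcripts were chosen after the data were seen.

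**Figure D4:**
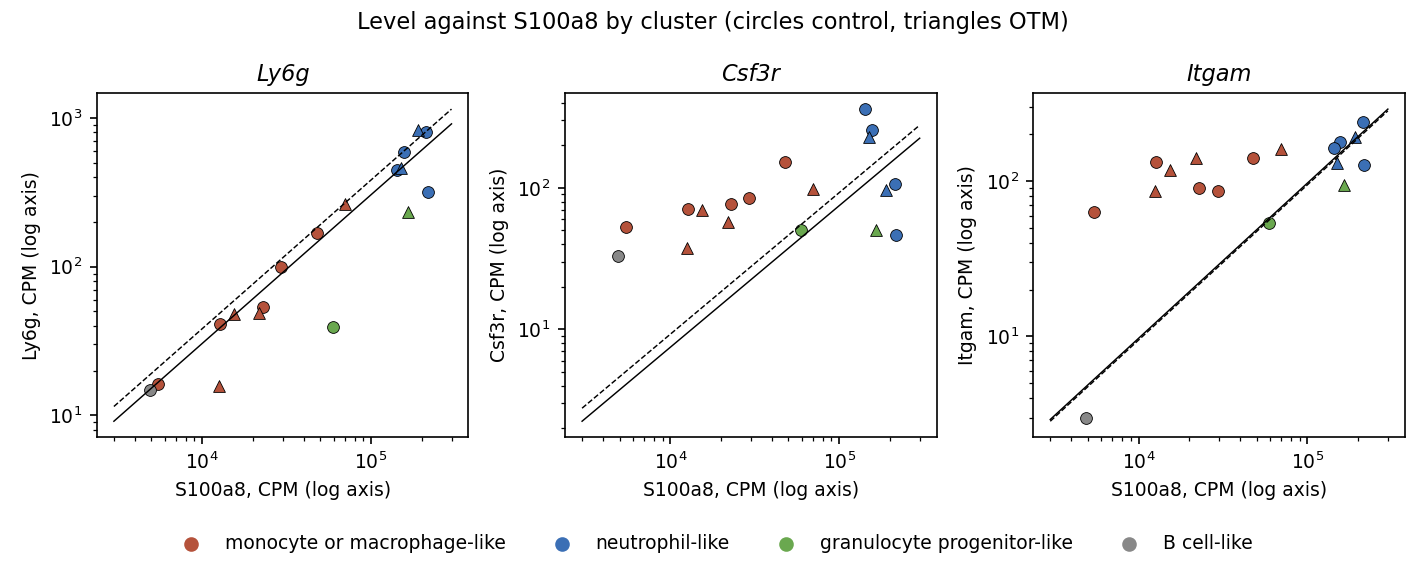
Level of Ly6g, Csf3r and Itgam against S100a8 in the 11 control (circles) and 7 OTM (triangles) clusters, on log axes in CPM, coloured by class. Lines give the neutrophil-class ratio to S100a8 (solid control, dashed OTM). Ly6g points of monocyte- or macrophage-like clusters lie near or below the lines, whereas their Csf3r and Itgam points lie above.

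Among the monocyte- or macrophage-like clusters of the OTM library, the MHC class II-high cluster had the highest Ly6g. It held 265 CPM (245 to 286) and the control cluster of the same name 53.3 CPM (42.2 to 66.6), a ratio of 4.97 (3.93 to 6.37). S100a8 moved with it, at 69824 CPM against 22872 CPM, and its Ly6g was 0.991 times the level that the neutrophil-like ratio to S100a8 gives. Of its 253 cells, 54 were called doublets by Scrublet, more than in any other OTM cluster, and its Itgam was 1.77 (1.45 to 2.17) times that of the control cluster. Acp5, a gene of osteoclasts and macrophages, was also among its leading genes. The part of doublets and of free RNA in these values was not tested.

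Ly6c2 was the most abundant member. It stood at 2217 CPM (2184 to 2250.1) in control and 1765 CPM (1738 to 1793) in OTM monocyte- or macrophage-like cells, and at 1061 CPM (1033 to 1089) and 905 CPM (877 to 933) in neutrophil-like cells. The neutrophil-like level was 0.478 (0.464 to 0.493) and 0.512 (0.495 to 0.531) of the other. The dividing classical monocyte-like clusters were highest, at 3641 CPM (3547 to 3738) and 2721 CPM (2637 to 2807), although the OTM interval overlapped that of the cluster led by Tnip3 at 2584 CPM (2519 to 2651). The resident macrophage-like cluster had 302 CPM (251 to 360.5), with an interval that overlapped that of B cell-like cells at 274 CPM (221 to 336).

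The control nonclassical monocyte-like cluster had Ly6c2 at 3345 CPM (3261 to 3431), which goes against its name, since nonclassical monocytes are known for low Ly6C, and Irf7, Phf11b and Fcgr1 were also among its leading genes. Control progenitor-like cells had 2012 CPM (1924 to 2104), above both immature neutrophil-like clusters at 1028 CPM (987 to 1071) and 659 CPM (617 to 703). The OTM progenitor-like cluster, unlike the control one in its markers as given above, had 901 CPM (868 to 934). Ly6c2 and Ly6g were found together in 35.5% of control and 33.1% of OTM neutrophil-like cells at 1500 UMIs. Of the 98-base words of Ly6c2 3′ ends, 17.2% also occur in Ly6c1 transcripts, which leaves the Ly6c2 count uncertain by shared reads, and no word of Ly6g 3′ ends occurs in another gene.

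Across the classes, 4 of the 9 genes were at least 4-fold apart in both libraries. Adgre1, Csf1r and Csf2rb2 were lower and Ly6g was higher in neutrophil-like cells. By comparison, 14.2% of 7839 genes were that far apart in the control library and 12.9% of 7449 in the OTM library. The cells were grouped by genes that vary with these, so the counts are a description. With barcodes kept only at 200 or more genes per 1000 UMIs, Ly6g alone of the 4 was past the fold in both libraries.

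Patterns over the 18 clusters were compared among 6476 genes by Pearson's r of log2(CPM + 10), over points that share a library, depth and S100a8 load. Genes whose pattern was like that of Adgre1 included AI607873 (r = 0.99) and Clec4a3 (r = 0.97). Csf1r was most like Cst3 (0.97), AI607873 (0.96) and Adgre1 itself (0.96). Ly6g was most like AA467197 (0.99), Gm19705 (0.97) and Ceacam10 (0.97), and Itgam like Ypel5 (0.92), Ifitm6 (0.90) and Mgst1 (0.90).

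The receptor chains had different nearest genes. Csf3r was most like Zfp652 (0.96), 2310001H17Rik (0.95) and Plk3 (0.95). Csf2ra was most like Cdc42 (0.93), Tnfrsf1a (0.93) and Srd5a3 (0.91), and Csf2rb like Stx7 (0.95), Fn1 (0.95) and Nfil3 (0.95). The nearest genes of Csf2rb2 were Tulp4, Agpat4 and Xpa (each 0.92), and those of Ly6c2 were Ltbr (0.83), Asap1 (0.83) and Ibtk (0.82).

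Between the libraries, 0 of 8 genes with 50 or more UMIs in neutrophil-like cells and 0 of 9 in monocyte- or macrophage-like cells were 1.5-fold apart. Over neutrophil-like cells 8.14% of 5834 genes were at least 1.5-fold higher and 21.4% lower in OTM, and over monocyte- or macrophage-like cells 5.24% of 8398 genes were higher and 16.8% lower. Genes as a whole were lower in OTM, with a median log2 ratio of −0.18 in neutrophil-like and −0.16 in monocyte- or macrophage-like cells, while the 9 genes had medians of 0.12 and 0.02. TMM scaling, which trims outlying genes, raised each log2 ratio by 0.17 and 0.18, so values relative to the median gene are given too.

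In monocyte- or macrophage-like cells, Ly6g was nearest to the fold, at 1.4997 (1.35 to 1.67), just under it, and 1.68 relative to the median gene. Without the MHC class II-high clusters its log2 ratio was −0.84, and without Scrublet doublets −0.077. Csf2rb2 was at 1.4 (1.09 to 1.81), or 1.56 relative to the median gene, and Itgam at 1.19 (1.09 to 1.3). Csf1r was lower in OTM at 0.739 (0.683 to 0.798), or 0.826 relative to the median gene, and stayed below 1 under all 12 alternatives tried.

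Csf3r at 0.793 (0.71 to 0.885) and Ly6c2 at 0.796 (0.779 to 0.814) were likewise lower in OTM monocyte- or macrophage-like cells. Relative to the median gene they were 0.886 and 0.89. Clusters of like name gave Csf3r ratios of 0.897 (0.765 to 1.05) in classical monocyte-like and 1.29 (1.03 to 1.63) in MHC class II-high cells. For Ly6c2 they gave 0.907 (0.884 to 0.931) and 0.853 (0.801 to 0.909). The nonclassical monocyte-like cluster, with 153 CPM of Csf3r and 3345 CPM of Ly6c2, was in the control class alone. Its part was not tested. Adgre1 at 1.08 (0.979 to 1.2), Csf2ra at 0.932 (0.865 to 1.0) and Csf2rb at 1.02 (0.943 to 1.1) had intervals that held 1, and Csf2ra lay above the median gene at 1.04.

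In neutrophil-like cells, Csf2ra had the largest ratio, 1.43 (1.28 to 1.6), or 1.63 relative to the median gene. Clusters of like name gave 1.85 (1.6 to 2.15) for immature and 0.944 (0.80 to 1.11) for mature neutrophil-like cells. The OTM immature cluster scored nearly as high on the mature markers, as given above. The control immature cells included the cluster with division genes, at 66.2 CPM of Csf2ra, which had no OTM counterpart among the neutrophil-like clusters. That control cluster shared the leading genes Cebpe, Hmgn2 and Rrm2 with the OTM progenitor-like cluster. The larger control immature cluster alone had 105 CPM of Csf2ra, against 168 CPM in the OTM immature cluster. With progenitor-like cells counted in, the ratio was 1.37 (1.25 to 1.51). Itgam was 0.857 (0.778 to 0.945) and Ly6c2 0.853 (0.818 to 0.888), which were 0.975 and 0.969 relative to the median gene.

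Ly6g in neutrophil-like cells was 1.11 (1.05 to 1.16) and changed direction, to 0.94 (0.896 to 0.986), once progenitor-like cells were counted in. The other 5 genes had intervals that held 1. These were Adgre1 at 1.05 (0.677 to 1.62), Csf1r at 1.04 (0.779 to 1.38), Csf3r at 1.09 (0.981 to 1.21), Csf2rb at 1.14 (0.962 to 1.35) and Csf2rb2 at 1.12 (0.50 to 2.49) from 29 UMIs.

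Comparing clusters of like name, Adgre1 in OTM was 1.28 (1.12 to 1.46) times the control in classical monocyte-like cells and 0.753 (0.608 to 0.934) times in MHC class II-high cells. The dividing clusters, where Adgre1 was low, held 172 control cells beside 640 others of that name and 109 OTM cells beside 332 and 304, and the OTM MHC class II-high cluster also carried resident macrophage markers. The part of these makeups in the ratios was not tested. Csf1r was lower in both, at 0.798 (0.716 to 0.89) and 0.78 (0.675 to 0.903). Ly6c2 was lower in mature neutrophil-like cells at 0.532 (0.499 to 0.567) and higher in immature ones at 1.15 (1.09 to 1.21). The near tie of marker scores in the OTM immature cluster applies here too. The control mature cells included the interferon-led cluster, with 1840.4 CPM of Ly6c2, which had no OTM counterpart. The larger control mature cluster alone had 1289 CPM of Ly6c2, against 774 CPM in the OTM mature cluster.

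**Figure D5:**
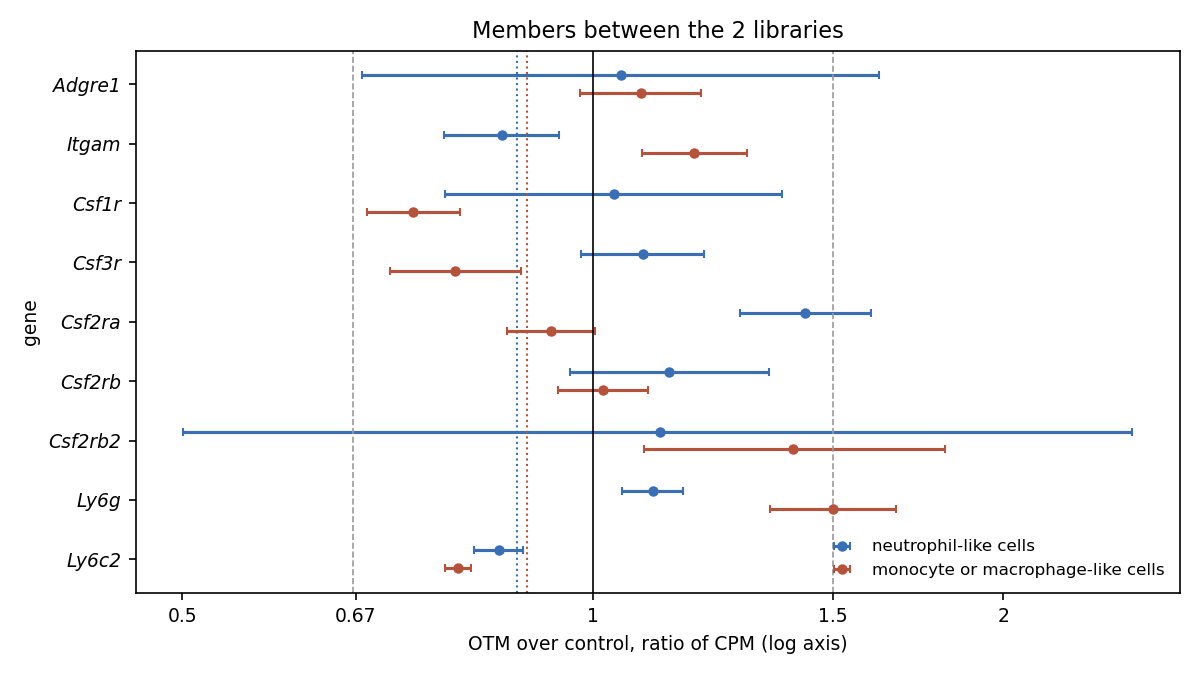
OTM over control ratio of each gene's level in neutrophil-like and monocyte- or macrophage-like cells, on a log axis, with 95% counting intervals. Dashed lines mark 1.5-fold and dotted lines the median gene of each class. All 18 points lie within the dashed lines, with Ly6g in monocyte- or macrophage-like cells at the upper one.

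Other genes of these pathways were read from lists. Of 6 ligands, Csf1 had 53 control and 24 OTM UMIs and Csf3, which encodes G-CSF, had 598 and 1716, while Il3 and Il5 were at 0 in both libraries and Csf2 and Il34 had at most 8. Csf3 stood at 66.5 and 143 CPM in control and OTM monocyte- or macrophage-like cells, a ratio of 2.16 (1.95 to 2.39). In neutrophil-like cells it was 12.9 and 89.2 CPM, a ratio of 6.89 (5.32 to 9.06). Csf3 was thus past 1.5-fold in both classes while Csf3r was not, and whether the 2 differ was not tested.

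Among other chains of the receptor family, Il3ra, the interleukin-3 alpha chain, held 216 and 221 UMIs, Flt3, a receptor of early progenitors and dendritic cells, 52 and 98, and Il5ra, Kit and Epor at most 48. Flt3 was higher in OTM monocyte- or macrophage-like cells at 2.37 (1.58 to 3.63). Of 17 signal transducers, 16 had 50 or more UMIs there, of which 1 was higher in OTM and 2 were lower by 1.5-fold. Of all genes in that class, 5.24% were higher and 16.8% lower by that fold. Socs3, a feedback inhibitor of cytokine receptors, was at 1.55 (1.46 to 1.64), Inpp5d, a phosphatase, at 0.574 (0.489 to 0.673) and Stat5b, a transcription factor downstream of these receptors, at 0.539 (0.416 to 0.695). The list's median log2 ratio was −0.099 in these cells, against the median of all genes above. In OTM neutrophil-like cells 3 of 14 transducers were higher and 2 lower by 1.5-fold, against 8.14% and 21.4% of all genes. Socs3 was higher there at 3.72 (3.18 to 4.36) and Socs1, of the same family, at 2.22 (1.25 to 4.03), while Cbl and Inpp5d were at least 1.5-fold lower.

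Of the integrins, Itgb2, the CD18 partner of CD11b, was 1.22 (1.13 to 1.33) and 1.4 (1.31 to 1.5) times as high in neutrophil- as in monocyte- or macrophage-like cells of the control and OTM library. Itgb2l, a relative of CD18, was 7.95 (5.06 to 13) and 6.8 (4.98 to 9.42) times as high, and since it was among the markers that named clusters this is a description. It was also higher in OTM in both classes, at 2.06 (1.24 to 3.52) in monocyte- or macrophage-like and 1.76 (1.39 to 2.24) in neutrophil-like cells. Itgal, the CD11a chain, was lower in OTM in both classes, at 0.431 (0.379 to 0.489) in monocyte- or macrophage-like and 0.591 (0.481 to 0.725) in neutrophil-like cells. Itgax, the CD11c chain, held 73 and 22 UMIs and Itgad 3 and 0. Of the relatives of F4/80, Adgre4 was lower in neutrophil-like cells at 0.0973 (0.0594 to 0.151) and 0.189 (0.111 to 0.302), Adgre5 was at 0.408 (0.355 to 0.468) and 0.39 (0.322 to 0.47), and Adgrg3 was higher at 6.66 (4.78 to 9.46) and 5.19 (3.79 to 7.17).

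Of 6 macrophage identity genes with enough control UMIs, 4 were at least 4-fold lower in neutrophil-like cells, among them Fcgr1, Cd68 and Lgmn. In the OTM library 5 of 7 were, among them these 3 and Mertk. Of all genes, 14.2% in the control and 12.9% in the OTM library were at least 4-fold apart in either direction. Fcgr1, the high-affinity IgG receptor CD64, stood at 173 and 229 CPM in monocyte- or macrophage-like cells and 9.52 and 15.1 CPM in neutrophil-like cells. Cd63, a granule and lysosome membrane protein, was 3.83 (3.54 to 4.16) and 3.85 (3.51 to 4.22) times as high in neutrophil-like cells. Siglec1, Cd163 and Timd4, genes of tissue-resident macrophages, had at most 24 UMIs in a library.

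Of 7 other Ly6 family genes, the 4 with enough control UMIs, Ly6c1, Ly6e, Ly6a and Ly6i, were all at least 4-fold lower in control neutrophil-like cells, against 14.2% of all genes at least 4-fold apart in either direction. In the OTM library 2 of 5 were lower, Ly6c1 and Ly6i, and Ly6k was higher at 38.5 (12.5 to 192), against 12.9% of all genes. Ly6c1, the neighbour that shares words with Ly6c2, held 1502 and 1226 UMIs, and its neutrophil-like level was 0.133 (0.109 to 0.16) and 0.0694 (0.0493 to 0.0951) of the other. Ly6a, the stem cell antigen Sca-1, stood at 104 and 58.3 CPM in monocyte- or macrophage-like cells and 6.66 and 18 CPM in neutrophil-like cells. Of 6 cell cycle genes, all 6 were at least 1.5-fold lower in OTM neutrophil-like cells, where the control class alone included a cluster led in part by division genes. Of all genes there, 21.4% were lower by that fold. The OTM progenitor-like cluster, led in part by Rrm2, lay outside that class. Of 6 interferon-induced genes, Ifit3 and Rsad2 were lower by 1.5-fold in OTM in both classes. Of all genes, 21.4% were that much lower in neutrophil-like and 16.8% in monocyte- or macrophage-like cells.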

How the data were processed

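Sorted cells were sequenced with 10x Genomics 3′ chemistry. Per the labels and methods, the authors made the deposited counts (UMI counts per gene and barcode) with Cell Ranger 3.0.0 on mm10, and clustered them with Seurat 3.0.0. The study states more cells than the files hold barcodes. Here each library was clustered alone in Seurat 5.3.0 (at least 200 genes and at most 5% mitochondrial UMIs, 12 control and 8 OTM principal components, resolution 0.6), since the stated filter of 200 genes per 1000 UMIs can be read 2 ways. Clusters were named by the markers among their 10 leading genes and then by marker level, a rule set after the data were seen. Scrublet ran in scanpy 1.11.5, and its calls were kept in. UMIs were summed per class, with Poisson, Clopper-Pearson and conditional binomial intervals, and 0.5 UMIs were added before log2 ratios. A gene was compared with at least 50 UMIs over both sides. TMM came from edgeR 4.0.16. Named genes are the 9 members, list genes with 50 or more UMIs in a library (the 8 highest of longer lists) and each member's 3 most correlated genes among those with 200 UMIs; others are named as counts of 0 or of few UMIs, or because they name a cluster, after their values were seen. The members and lists were chosen with earlier results of these data known. The ratio code was tested on simulated data. Each total of 14620877 control and 16500733 OTM UMIs sets the precision. No statistical test was run, and the effects of other settings stand in the closing section. Some genes of the lists are not reported here.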

Additional observations from a re-analysis of the deposited data

Results flagged for a closer look

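Itgam moved in opposite directions in the 2 classes between the libraries, being 0.857 of the control level in OTM neutrophil-like cells and 1.19 times the control level in OTM monocyte- or macrophage-like cells, with counting intervals on opposite sides of 1. Relative to the median gene the neutrophil-like ratio was 0.975, and without the MHC class II-high clusters, the OTM one of which held 54 Scrublet doublets, the monocyte- or macrophage-like log2 ratio fell from 0.25 to 0.06. Classical monocyte-like clusters alone gave a ratio of 1.12 (0.992 to 1.25). With 1 library per condition the difference was not tested. The second row that carries the symbol Itgam, which no comparison above used on its own, held 102 UMIs in the control and 106 in the OTM library, where 3 counts is the limit that a count of 0 allows. These were 5.28% and 4.85% of the UMIs of the first row.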

How the results depend on the processing

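No paired analysis was possible because each condition had 1 library. Alternatives were listed with earlier results of these data known, and summing the 2 Itgam rows, leaving out MHC class II-high clusters and counting granulocyte progenitors with neutrophils were added after seeing the data. The cause of each change was not tested. The neutrophil-like share became 37.8% (control) and 34.8% (OTM) with at least 200 genes per 1000 UMIs, 44.9% and 51.4% with progenitors counted in, and in OTM 46.0% for all barcodes, 46.8% at resolution 1.0, 45.2% with the libraries clustered together and 49.9% without Scrublet doublets. The 4 members at least 4-fold apart between classes became 1 with at least 200 genes per 1000 UMIs and 3 to 5 under all other alternatives. Members 1.5-fold apart between libraries went from 0 in neutrophil-like cells to 4 with at least 200 genes per 1000 UMIs, 1 at resolution 1.0 and with TMM scaling, and 2 with the libraries clustered together or without Scrublet doublets. In monocyte- or macrophage-like cells they went from 0 to 1 with at least 200 genes per 1000 UMIs, at resolution 0.3 and with the libraries clustered together, 2 with TMM scaling and 3 without MHC class II-high clusters. The Ly6g log2 ratio of OTM over control turned in neutrophil-like cells from 0.15 to −0.58 with at least 200 genes per 1000 UMIs, −0.10 for all barcodes, −0.13 at resolution 1.0, −0.14 with the libraries clustered together, −0.11 without doublets and −0.089 with progenitors. In monocyte- or macrophage-like cells it turned from 0.58 to −2.12 with at least 200 genes per 1000 UMIs, −0.49 at resolution 1.0, −0.077 without doublets and −0.84 without MHC class II-high clusters. Of 198 recomputed log2 ratios between classes, 196 kept their sign, and the 2 others were Csf2ra in OTM. Their size was less stable, and 71 lay outside the counting interval of the main value. With at least 200 genes per 1000 UMIs, the OTM ratio went from −3.29 to −1.33 for Adgre1 and from −2.61 to −0.98 for Csf1r. It went from −2.48 to −0.67 for Csf2rb2, while that of Ly6g rose from 2.65 to 5.14. Of 216 log2 ratios between libraries, 181 kept their sign.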
